A study of Bos taurus with 138 samples.

Results

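The DNA replication machinery is described here through 58 genes, chosen by name as subunits, loaders, regulators and substrate enzymes of the replication fork and found as 58 of the 16706 gene rows of the table. They were measured in Bos taurus oocytes before maturation, with an intact germinal vesicle (GV), after maturation to metaphase II (MII), and in 2-cell embryos, 8-cell embryos, morulae and blastocysts. GV oocytes came as cumulus-oocyte complexes from abattoir ovaries, MII oocytes were matured in vitro, and embryos were made in vitro with semen from a single bull and cultured without further treatment. All groups shared a short cycloheximide treatment, which holds ribosomes on mRNA, and enzymatic removal of the zona pellucida, and cumulus cells had been taken off. At each stage, lysates of pooled oocytes or embryos were spun through 2 sucrose gradients, A and B, each cut into 10 fractions (F1 to F10), and 3 transcriptomes (A, B and C) were made from pooled whole oocytes or embryos. Lighter RNA stays near the top of a gradient, so F1 and F2 hold mostly free RNA, F3 to F5 mRNA with single ribosomes (monosomes), and F8 to F10 mRNA with several ribosomes (polysomes). Each library pools many oocytes or embryos, so variation between single embryos cannot be seen, and a lower level in an embryo could be less RNA in each cell or fewer cells that hold it, which cannot be told apart.

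Replication begins at origins marked by the origin recognition complex, ORC, where CDC6 and CDT1 load the ring of MCM2 to MCM7 in a step called licensing, and geminin (GMNN) binds CDT1 and stops loading once S phase has begun. The kinase CDC7 with its activator DBF4, together with TOPBP1, CDC45 and the GINS complex, turns the loaded ring into a moving helicase, and polymerases alpha, delta and epsilon copy the DNA behind it with the sliding clamp PCNA and its loader RFC. Oocytes carry stores of these mRNAs and proteins, since the early cleavages follow one another while the embryo transcribes little, and in cattle the major activation of the embryonic genome takes place around the 8-cell stage.

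Levels are CPM, expected counts rescaled to a common library total, after TMM scaling of library totals, and a polysome pool is the sum of F8, F9 and F10 of a gradient, with n = 2 pools and n = 3 transcriptomes per stage. Because CPM is a share of a library, a polysome difference, the log2 difference of pools minus transcriptomes, compares the share of a gene in polysomal RNA with its share in whole-cell RNA and is not a number of ribosomes. Totals of expected counts ran from 22543733 to 39380640 in the pools and from 3269386 to 11812567 in the transcriptomes, and all 58 genes passed the filter on low counts among 14612 genes tested. Genes were called at an edgeR quasi-likelihood adjusted p below 0.05, and between stages the fold change also had to exceed 2. Over all tested genes the median polysome difference was 0.18 at the 2-cell and -0.26 at the 8-cell stage, and lay within 0.1 of 0 at the other stages, so small differences at those 2 stages are read against that shift.

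Summed oocyte markers, such as GDF9 and the zona pellucida genes, held 12632 to 80824 CPM in the libraries up to the 2-cell stage. In 8-cell embryos they held 3668 to 5128 CPM in pools and 375 to 780 CPM in transcriptomes. Later they held 27.2 to 203 CPM in morula and blastocyst transcriptomes, 166 to 766 CPM in morula pools and 88.3 to 96.5 CPM in blastocyst pools. Summed trophectoderm markers reached 12462 to 17014 CPM in blastocyst pools. Markers of cumulus and granulosa cells summed to 398 to 579 CPM in MII transcriptomes against 53.5 to 143 CPM in MII pools, and to 199 to 1181 CPM in 8-cell transcriptomes against 44.8 to 134 CPM in 8-cell pools. That sum came mostly from VCAN, HAS2 and TNFAIP6, and 3 of the 11 markers averaged below 1 CPM in MII transcriptomes and 5 in MII pools. FOXL2, another of these markers, averaged 0 CPM in MII transcriptomes and 0.288 CPM in 8-cell transcriptomes. It averaged no more than 0.369 CPM in any group, so its level does not tell the groups apart. Cumulus cells divide and use the same replication genes, and their part in the MII and 8-cell differences was not tested.

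More genes of the machinery were lower than higher in polysomes over the stages. Of the 58 genes, 32 were lower at least once and never higher (55.2%; 41.6% of all tested genes), and 20 were higher at least once and never lower (34.5%; 37.6%). RPA1 and LIG1 were called in both directions (3.45%; 7.53%), so a single direction was the usual case among all genes as well. CDC6, MCM9, CDC45 and POLE passed the test at no stage (6.9%; 13.2%). At all 6 stages, LRWD1, CDT1, MCM5, MCM7, POLD1, POLD2 and TK1 were higher in polysomes, 7 of 58 (12.1%; 9.92% of all tested genes), and ORC4, ORC5, GMNN, DBF4, PCNA, RFC1, TIPIN, CLSPN and WDHD1 were lower, 9 of 58 (15.5%; 5.78% of all tested genes). Partners within a complex lay on opposite sides, as the plot of polysome differences by role shows.

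**Figure D1:**
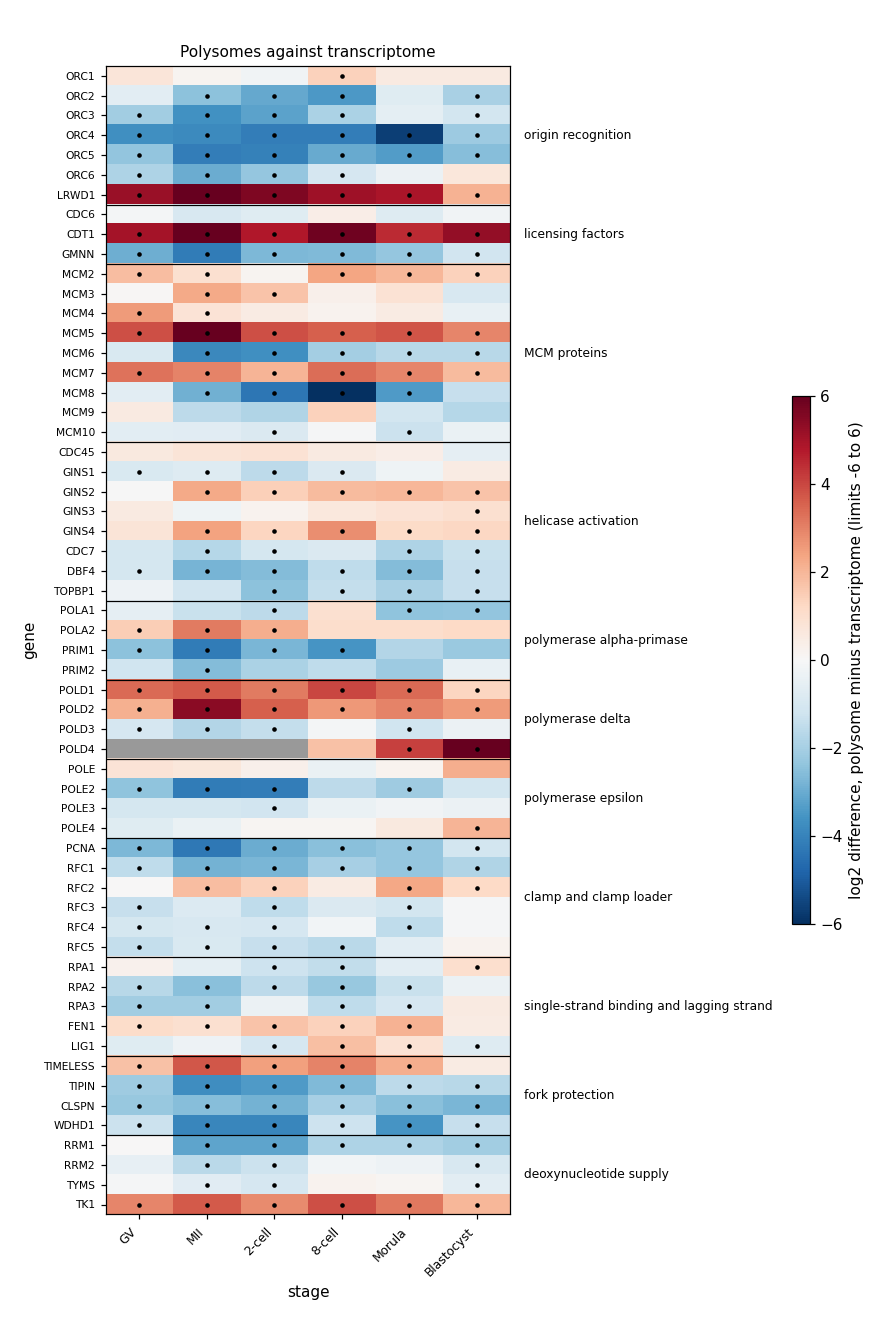
Polysome differences of the 58 replication genes (rows, grouped by role) at the 6 stages (columns). Red is higher and blue lower in polysome pools than in transcriptomes, on a log2 scale capped at -6 and 6, dots mark edgeR adjusted p below 0.05, and grey marks the POLD4 cells with at most 15 counts in both groups. Red and blue run along rows rather than down columns, with CDT1 higher and GMNN lower, and MCM5 higher and MCM6 lower, at every stage.

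By stage, the members called higher and lower in polysomes were 12 (20.7%) and 20 (34.5%) for GV, against 22.2% and 17.7% of all tested genes (39.8% in either direction). For MII they were 16 (27.6%) and 27 (46.6%), against 30.8% and 26.7% (57.5% in either direction). For the 2-cell stage they were 14 (24.1%) and 32 (55.2%), against 29.1% and 21.9% (51.0% in either direction). The 8-cell counts were 14 (24.1%) and 22 (37.9%), against 28.0% and 31.0% (59.1% in either direction). The morula counts were 15 (25.9%) and 22 (37.9%), against 26.5% and 25.2% (51.7% in either direction), and the blastocyst counts 15 (25.9%) and 19 (32.8%), against 20.0% and 20.1% (40.1% in either direction). The share of members called lower was above the background at each stage. The share called higher was below it up to the morula, by little in GV oocytes and morulae, and above it in blastocysts. That blastocyst count depended on scaling, since the 15 members called higher became 12 with RLE size factors and 9 on library totals without TMM. Median polysome differences of the members were -0.58, -0.94, -1.10, -0.16, -0.61 and -0.37 in stage order from GV oocytes to blastocysts. Medians of all tested genes were 0, 0, 0.18, -0.26, 0 and -0.08 in the same order. The member median thus lay above that of all genes in 8-cell embryos and below it at the other stages. Without the blastocyst pool of gradient A, 21 members rather than 34 were called in blastocysts, 10 higher and 11 lower.

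The other pools of the gradients were compared after the data had been seen. The free RNA pool (F1 and F2) was set against the same transcriptomes as the polysome pool, and the monosome pool against the same polysome pools, so the comparisons share libraries and each is given by its own counts. In free RNA, the members called higher and lower than the transcriptome were 9 (15.5%) and 31 (53.4%) for GV, against 30.2% and 24.4% of all genes tested there. The MII counts were 12 (20.7%) and 30 (51.7%), against 31.4% and 26.8%, and the 2-cell counts 13 (22.4%) and 26 (44.8%), against 25% and 19.2%. They were 16 (27.6%) and 27 (46.6%) for the 8-cell stage, against 29.1% and 35.2%, 7 (12.1%) and 27 (46.6%) for the morula, against 22.2% and 25.2%, and 4 (6.9%) and 10 (17.2%) for the blastocyst, against 9.56% and 15.8%. CDT1 was higher and PCNA and GMNN were lower in free RNA at all 6 stages, with GV differences of 6.26, -4.61 and -4.23 and blastocyst differences of 2.51, -2.03 and -1.97. The polysome against monosome fit, with the gradient as a term, called 1 member in MII oocytes, PCNA, which was higher in polysomes (2.75 ± 0.42, adjusted p = 0.0475, 0.121% of all genes higher). It called 8 members in 8-cell embryos, MCM6, CDC7, POLA1, PCNA and RRM2 as higher (4.06% of all genes) and MCM3, MCM5 and GINS2 as lower (4.68%). In morulae it called MCM6 as higher (2.81 ± 0.45, 0.518% of all genes), and it called no member in GV oocytes, 2-cell embryos or blastocysts, where it called 0.202%, 0.0% and 0.639% of all genes as higher and 0.0672%, 0.0% and 0.672% as lower. At an unadjusted p below 0.05, edgeR gave 9, 10, 8, 24, 15 and 8 members in stage order in this fit. Shares of all genes at an unadjusted p were not counted, here or below, so such counts have no background beside them. The fractions and the transcriptomes were separate preparations, and how far the preparation moves with the polysome differences cannot be told apart from ribosome loading in this design.

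**Figure D2:**
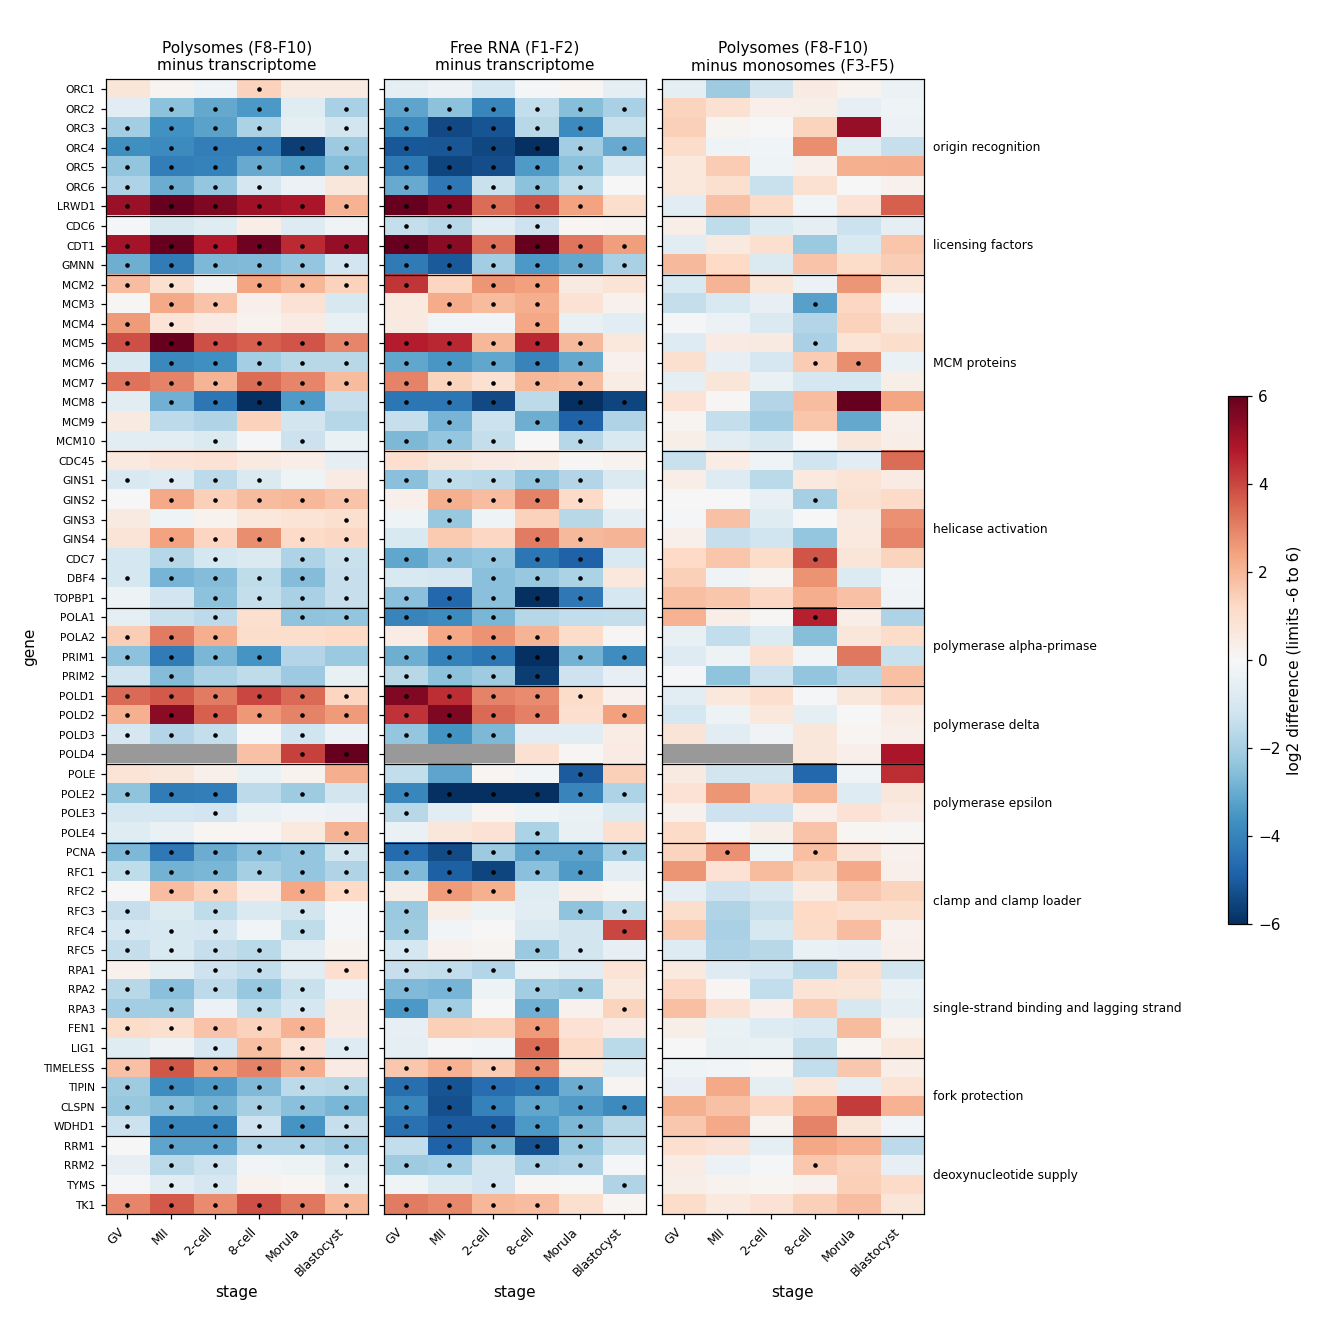
The 58 replication genes (rows, grouped by role) at the 6 stages (columns) in polysome pools against transcriptomes (left), free RNA pools against the same transcriptomes (middle) and polysome pools against monosome pools of the same gradients (right), as log2 differences capped at -6 and 6. Dots mark edgeR adjusted p below 0.05 and grey marks POLD4 in oocytes and 2-cell embryos, where its counts were low. Dots fill much of the left and middle panels, and the right panel holds 1 in MII oocytes, 8 in 8-cell embryos and 1 in morulae.

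Single fractions were also set against the mean transcriptome, which they share with the differences above. Mean levels of POLD2 over both gradients were above the mean transcriptome in all 60 fractions (10 at each of 6 stages), those of CDT1 and MCM5 in 59, of MCM7 and TK1 in 58, of POLD1 in 57 and of LRWD1 in 56. PCNA, GMNN, POLE2, MCM8, RFC1, TIPIN and CLSPN lay below the transcriptome in all 60. The 10 fractions of a stage were set against the same mean transcriptome, so the 60 comparisons are not independent. How many of all genes have such counts was not determined.

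**Figure D3:**
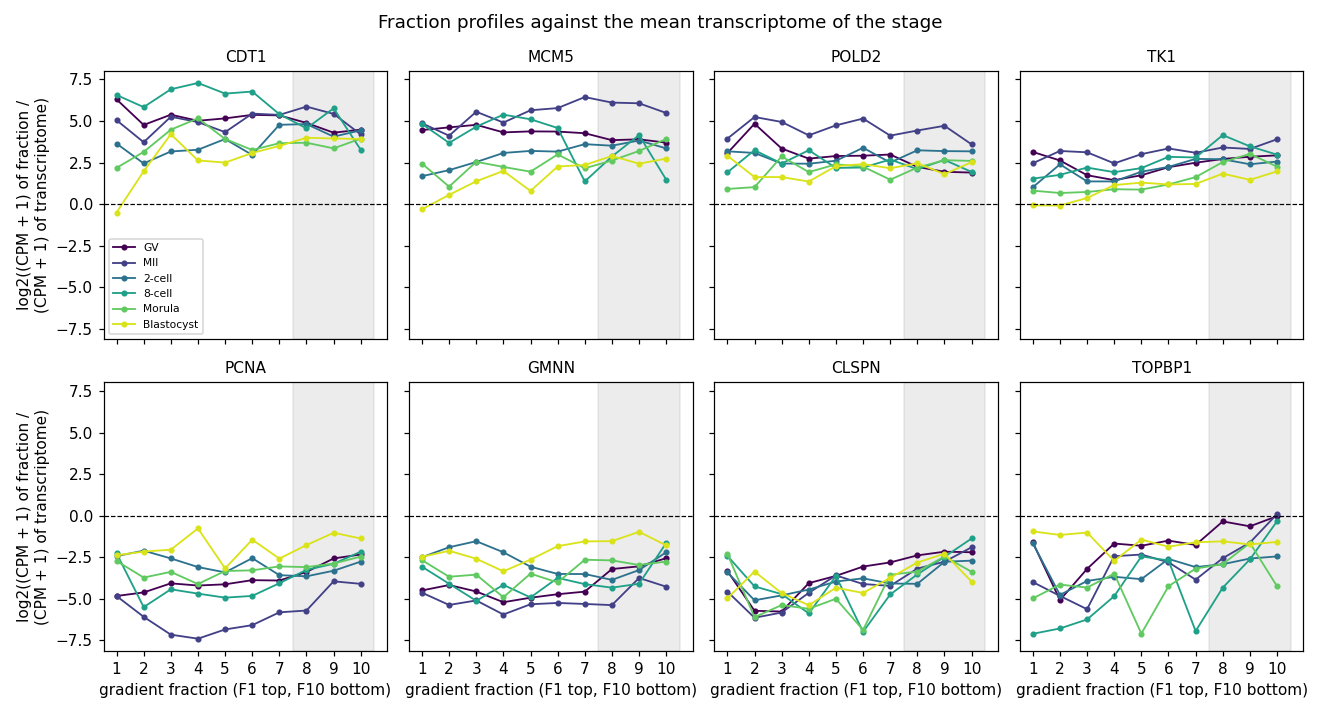
Profiles of 8 replication genes across F1 to F10 (x axis) as log2 of the mean CPM + 1 of both gradients over the mean CPM + 1 of the transcriptomes (y axis), with 1 line per stage, the polysome fractions shaded and a dashed line at 0. CDT1, MCM5, POLD2 and TK1 lie above the line in nearly all fractions, light ones included, and PCNA, GMNN and CLSPN lie below it in all.

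Of the 7 origin recognition genes, 4, 5, 5, 5, 2 and 4 were lower in polysomes in stage order from GV oocytes to blastocysts (17.7% to 31.0% of all tested genes). In the same order 1, 1, 1, 2, 1 and 1 were higher (20.0% to 30.8%). ORC1 to ORC6 form the complex that binds origins, and LRWD1 (also ORCA) ties it to chromatin. In the pools of gradients A and B, ORC6 measured 85.1 and 90.9 (GV), 74.7 and 102 (MII), 79.1 and 52.97 (2-cell), 68.7 and 42.8 (8-cell), 298 and 93.7 (morula), and 83.1 and 82.1 CPM (blastocyst). Its transcriptomes held 248, 416 and 291 (GV), 687, 589.9 and 846 (MII), 353, 314 and 312 (2-cell), 94.3, 118 and 119 (8-cell), 261, 242 and 251 (morula), and 53.2, 40.6 and 59.8 CPM (blastocyst). Pools lay below all transcriptomes of their stage up to the 8-cell stage, overlapped them in morulae and lay above them in blastocysts, where the test was not passed. The polysome difference of ORC6 went from -3.00 ± 0.39 (SE) at MII to 0.69 ± 0.34 in blastocysts. The 8-cell call was lost without pool B.

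LRWD1 was the opposite case, and the study itself names it from these data. Its pools contained 140.1 and 168 (GV), 179.8 and 185 (MII), 88.7 and 41.8 (2-cell), 43.7 and 36.98 (8-cell), 12.2 and 44.3 (morula), and 23.1 and 16.002 CPM (blastocyst), while the transcriptomes contained 5.62, 2.77 and 4.36 (GV), 1.03, 1.32 and 0.595 (MII), 0.761, 1.998 and 1.203 (2-cell), 1.97, 0.358 and 1.22 (8-cell), 1.12, 1.25 and 0.431 (morula), and 4.704, 4.77 and 4.402 CPM (blastocyst). The groups did not overlap at any stage. LRWD1 was 184-fold higher in MII polysomes (log2 7.52 ± 0.68, adjusted p = 1.73e-09) and 4.23-fold higher in blastocyst polysomes (log2 2.08 ± 0.57, adjusted p = 0.00524). In the free RNA pool it was also above the transcriptome, by 6.27 in GV oocytes and 1.06 in blastocysts on the log2 scale.

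ORC1, the largest ATPase subunit, was called only in 8-cell embryos (log2 1.36 ± 0.45, adjusted p = 0.0128). Its pools held 66.3 and 65.6 (GV), 25.6 and 47.6 (MII), 63.7 and 19.2 (2-cell), 50.3 and 174 (8-cell), 95.4 and 107 (morula), and 87.98 and 48.8 CPM (blastocyst) and its transcriptomes 47.6, 31.7 and 41.9 (GV), 30.7, 32.6 and 34.9 (MII), 50.6, 46.8 and 47.9 (2-cell), 27.2, 53.3 and 50.3 (8-cell), 81.2, 70.8 and 57.9 (morula), and 47.04, 44.8 and 50.6 CPM (blastocyst). The 8-cell call rested on gradient B at 174 CPM, since gradient A lay within the range of the transcriptomes, and it was lost without either the 8-cell pool of gradient B or transcriptome A. ORC4 and ORC5 were lower at all 6 stages. ORC4 had morula pools at 3.81 and 1.24 CPM against 100.4, 118 and 155 CPM (log2 -5.64 ± 0.60, adjusted p = 6.82e-08). In GV oocytes ORC4 stood at 50.3 and 44.6 CPM in pools and 488, 632 and 703 CPM in transcriptomes, and in 8-cell embryos at 11.1 and 5.94 against 149, 161 and 137 CPM. For ORC5 in blastocysts the values were 2.65 and 9.11 against 53.5, 26.5 and 25.2 CPM. ORC3 was lower at 5 stages and ORC2 at 4.

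Of the licensing factors, CDT1 and its inhibitor GMNN differed in opposite directions at every stage. CDT1 pools held 92.5 and 128 (GV), 114 and 90.6 (MII), 234 and 253 (2-cell), 54.5 and 97.6 (8-cell), 34.1 and 69.3 (morula), and 34.2 and 23.4 CPM (blastocyst). In the transcriptomes CDT1 was far lower, at 4.63, 3.59 and 2.23 (GV), 0.916, 1.82 and 0.833 (MII), 6.47, 7.43 and 11.9 (2-cell), 1.37, 1.61 and 1.04 (8-cell), 4.57, 0.894 and 1.401 (morula), and 0.294, 0.829 and 1.0004 CPM (blastocyst). Every pool lay above every transcriptome, with polysome differences from 4.49 ± 0.56 in morulae to 6.40 ± 0.61 in MII oocytes. GMNN pools measured 53.2 and 52.5 (GV), 40.8 and 33.3 (MII), 48.2 and 40.6 (2-cell), 70.6 and 65.04 (8-cell), 184 and 113 (morula), and 123 and 116 CPM (blastocyst). GMNN transcriptomes measured 320.1, 488 and 391 (GV), 717, 621 and 702 (MII), 324, 305 and 243 (2-cell), 356, 528 and 385 (8-cell), 707, 756 and 743 (morula), and 242, 238 and 304 CPM (blastocyst). All pools lay below all transcriptomes of their stage, with differences of -4.20 ± 0.30 in MII oocytes (adjusted p = 3.27e-11) and -1.13 ± 0.25 in blastocysts (adjusted p = 0.00107).

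CDC6, the ATPase that works with ORC, passed no test of polysomes against transcriptome. Its pool values were 158 and 154 (GV), 53.2 and 76.4 (MII), 111 and 92.5 (2-cell), 90.7 and 25.5 (8-cell), 5.83 and 39.7 (morula), and 10.6 and 30.3 CPM (blastocyst), and its transcriptome values 169, 164 and 179 (GV), 142, 125 and 106 (MII), 169, 174 and 168 (2-cell), 32.9, 38.4 and 58.97 (8-cell), 48.3, 29.9 and 40.6 (morula), and 21.2, 24.7 and 24.6 CPM (blastocyst). Gradients A and B of CDC6 differed widely at the last 3 stages. The pools spanned the transcriptomes in 8-cell embryos and blastocysts, and in morulae pool B lay among them and pool A below.

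MCM genes encode the ring helicase, yet its subunits stood on both sides. MCM5 and MCM7 were higher in polysomes at 6 stages and MCM2 at 5, MCM3 and MCM4 at 2, and MCM6 was lower at 5. MCM2 measured 25.6 and 21.8 (GV), 33.2 and 34.1 (MII), 11.98 and 8.43 (2-cell), 27.4 and 60.8 (8-cell), 90.5 and 175 (morula), and 135 and 95.4 CPM (blastocyst) in pools. In transcriptomes MCM2 was at 7.21, 7.79 and 4.87 (GV), 20.4, 13.3 and 18.8 (MII), 7.46, 10.1 and 9.702 (2-cell), 9.25, 8.16 and 7.92 (8-cell), 45.4, 32.9 and 22.7 (morula), and 50.9, 32.8 and 48.2 CPM (blastocyst). The groups separated widely in GV oocytes (log2 1.84 ± 0.40, adjusted p = 0.000696) and 8-cell embryos (log2 2.38 ± 0.40, adjusted p = 2.54e-05), and not in 2-cell embryos, where the values overlapped. The MII call of MCM2 was lost when any 1 of its 5 libraries was left out, and the blastocyst call without pool A.

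MCM4, which the study names from these data, had pools at 735 and 498 (GV), 289 and 349.9 (MII), 210.3 and 262 (2-cell), 52.7 and 82.3 (8-cell), 151 and 164 (morula), and 148 and 114 CPM (blastocyst). MCM4 transcriptomes were at 114, 116 and 83.9 (GV), 196, 186 and 159 (MII), 164, 170.4 and 171 (2-cell), 51.5, 51.3 and 72.7 (8-cell), 139, 94.8 and 95.995 (morula), and 155, 164 and 215 CPM (blastocyst). It was higher in GV polysomes (log2 2.56 ± 0.27, adjusted p = 7.50e-08) and MII polysomes (log2 0.83 ± 0.27, adjusted p = 0.0112), and the other 4 stages ranged from -0.44 ± 0.28 in blastocysts to 0.52 ± 0.27 in morulae without passing the test. The MII call did not hold without pool B or transcriptome C. MCM5 reached 2956 and 1809.8 CPM in MII pools against 31.3, 37.004 and 35.8 CPM in transcriptomes (log2 6.10 ± 0.50, adjusted p = 3.41e-10), and was also far apart in GV oocytes (782 and 845 against 79.03, 36.4 and 51.7 CPM), 2-cell embryos (646 and 563 against 44.6, 38.3 and 42.9 CPM) and blastocysts (396 and 234 against 50.9, 36.5 and 35.4 CPM).

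MCM6 was the ring subunit that polysomes held least of relative to the transcriptome. Its pools gave 225 and 276 (GV), 77.5 and 58.4 (MII), 70.2 and 65.5 (2-cell), 104 and 110.5 (8-cell), 88.4 and 244 (morula), and 45.9 and 15.2 CPM (blastocyst) and its transcriptomes 481, 482 and 436 (GV), 666, 976 and 1291 (MII), 1027, 886 and 659 (2-cell), 341, 397 and 592 (8-cell), 612, 460.1 and 482 (morula), and 89.1, 89.1 and 109 CPM (blastocyst). No pool of MCM6 reached a transcriptome of the same stage, and the difference widened from -0.89 ± 0.40 in GV oocytes, which did not pass the test (adjusted p = 0.0769), to -3.85 ± 0.46 in MII oocytes (adjusted p = 1.65e-07). Without blastocyst pool B the blastocyst call was lost.

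MCM10, which helps to start the helicase, had pools at 151 and 126 (GV), 137.8 and 201 (MII), 135 and 177 (2-cell), 52.99 and 132 (8-cell), 52.1 and 92.97 (morula), and 79.5 and 71.2 CPM (blastocyst). MCM10 transcriptomes were at 229.8, 191 and 215 (GV), 228, 259 and 324 (MII), 317, 294 and 245 (2-cell), 86.9, 87.1 and 118 (8-cell), 189, 171 and 175 (morula), and 71.4, 123 and 108 CPM (blastocyst). It was called lower in 2-cell embryos (log2 -0.87 ± 0.34) and morulae (log2 -1.30 ± 0.34), and the 2-cell call was lost without either pool or without transcriptome A or B, the morula call without pool A. MCM8 and MCM9 belong to a separate helicase used in recombination. MCM8 in 8-cell embryos stood at 0 and 0.461 CPM in pools and 13.8, 21.1 and 14.4 CPM in transcriptomes, in 2-cell embryos at 3.14 and 0.3999 against 45.7, 32.7 and 28.6 CPM, and in morulae at 0.337 and 3.08 against 13.6, 20.5 and 20.9 CPM. MCM8 was lower at those stages and in MII oocytes, and the morula call was lost without pool A.

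Helicase activators were split as well. GINS2 and GINS4 were higher in polysomes at 5 stages, GINS3 only in blastocysts, and GINS1 was lower at 4 stages, although the 4 proteins form 1 complex. GINS2 pools held 114 and 136 (GV), 721 and 432 (MII), 347 and 404 (2-cell), 61.97 and 109.6 (8-cell), 507 and 329.7 (morula), and 392 and 362 CPM (blastocyst). Transcriptomes held 121, 143 and 124 (GV), 122, 101 and 135 (MII), 146, 125 and 148 (2-cell), 25.02, 19.9 and 25.1 (8-cell), 129, 91.6 and 89.6 (morula), and 114, 109.9 and 125 CPM (blastocyst) of GINS2. GV pools and transcriptomes overlapped, and from MII oocytes on every pool was above every transcriptome (log2 2.27 ± 0.27 in MII oocytes, adjusted p = 1.88e-07). CDC45, the helicase cofactor, passed the test at no stage. It measured 20.4 and 29.6 (GV), 31.3 and 28.9 (MII), 23.7 and 38.7 (2-cell), 10.1 and 30.3 (8-cell), 17.5 and 25.02 (morula), and 17.9 and 10.98 CPM (blastocyst) in pools and 19.4, 16.1 and 14.3 (GV), 12.4, 17.2 and 22.5 (MII), 16.6, 18.8 and 15.6 (2-cell), 16.3, 13.3 and 12.4 (8-cell), 19.6, 16.2 and 12.9 (morula), and 21.8, 22.4 and 18.6 CPM (blastocyst) in transcriptomes, and the difference ranged from -0.53 ± 0.45 in blastocysts to 0.88 ± 0.44 in 2-cell embryos.

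CDC7 and its activator DBF4 were both on the low side. CDC7 pools measured 13.6 and 16.5 (GV), 31.5 and 9.26 (MII), 24.9 and 25.01 (2-cell), 43.8 and 44.7 (8-cell), 10.9 and 26.4 (morula), and 10.5 and 15.1 CPM (blastocyst). CDC7 transcriptomes measured 34.3, 27.3 and 32.9 (GV), 65.4, 61.6 and 75.7 (MII), 57.7, 55.3 and 42.4 (2-cell), 61.95, 99.7 and 79.1 (8-cell), 69.2, 56.1 and 77.5 (morula), and 22.1, 36.7 and 38.02 CPM (blastocyst). Every pool lay below every transcriptome of its stage, and the calls in MII oocytes, 2-cell embryos, morulae and blastocysts had log2 differences of -1.73 ± 0.45, -1.05 ± 0.43, -1.85 ± 0.45 and -1.34 ± 0.44. The MII call was lost without pool B, the 2-cell call without either pool or without transcriptome A or B, and the blastocyst call without pool A or transcriptome C. DBF4 was called lower at all 6 stages, from -1.06 ± 0.39 in GV oocytes to -2.80 ± 0.42 in MII oocytes. TOPBP1, a scaffold for loading CDC45, was lower from the 2-cell stage on.

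Polymerase alpha and primase make the RNA-DNA primers. POLA1, the catalytic subunit, gave 33.8 and 17.7 (GV), 27.4 and 15.9 (MII), 9.01 and 20.8 (2-cell), 99.4 and 5.15 (8-cell), 10.02 and 9.83 (morula), and 11.2 and 10.8 CPM (blastocyst) in pools. POLA1 transcriptomes gave 38.04, 39.3 and 35.98 (GV), 49.7, 57.7 and 59.1 (MII), 51.6, 44.3 and 35.3 (2-cell), 27.8, 31.3 and 21.7 (8-cell), 51.4, 63.9 and 44.6 (morula), and 51.5, 64.5 and 54.6 CPM (blastocyst). The gradients disagreed in 8-cell embryos by a wide margin, with A above and B below all transcriptomes. POLA1 was lower in polysomes of 2-cell embryos (-1.55 ± 0.65), morulae (-2.42 ± 0.68) and blastocysts (-2.37 ± 0.68). The 2-cell call was lost without pool A or any transcriptome, and the blastocyst call without either pool. PRIM1, the small primase subunit, held 2.72 and 2.03 (GV), 2.49 and 1.895 (MII), 3.64 and 0.738 (2-cell), 0 and 0.732 (8-cell), 1.35 and 5.12 (morula), and 0.827 and 1.06 CPM (blastocyst) in pools and 10.6, 11.7 and 17.03 (GV), 37.7, 30.2 and 52.2 (MII), 10.2, 20.7 and 13.01 (2-cell), 4.46, 3.76 and 5.22 (8-cell), 11.9, 8.404 and 13.04 (morula), and 2.06, 4.15 and 7.003 CPM (blastocyst) in transcriptomes. PRIM1 pools were below all transcriptomes at every stage and called lower from GV oocytes to 8-cell embryos, with -4.19 ± 0.98 in MII oocytes. Its GV call was lost without either pool or without transcriptome C, and its 2-cell call without pool B. The accessory subunit POLA2 was higher in GV, MII and 2-cell polysomes, and PRIM2 was lower in MII oocytes only.

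Polymerase delta copies the lagging strand, and its catalytic subunit POLD1 and its partner POLD2 were higher in polysomes at all 6 stages while POLD3 was lower at 4. POLD1 measured 223 and 277 (GV), 132 and 219.8 (MII), 130.5 and 124 (2-cell), 66.6 and 157 (8-cell), 139 and 271 (morula), and 197 and 113 CPM (blastocyst) in pools. In transcriptomes POLD1 measured 23.5, 30.5 and 17.7 (GV), 13.1, 17.5 and 10.2 (MII), 16.2, 10.4 and 16.8 (2-cell), 6.08, 7.53 and 7.39 (8-cell), 26.2, 19.4 and 12.5 (morula), and 79.7, 53.1 and 59.8 CPM (blastocyst). No pool met a transcriptome, and the polysome difference was 3.99 ± 0.43 in 8-cell embryos (adjusted p = 4.32e-08) and 1.27 ± 0.40 in blastocysts (adjusted p = 0.0135), where it was lost without pool A or transcriptome B. POLD4, the small subunit that the study names from these data, was at 0 and 0.405 (GV), 0 and 0 (MII), 0 and 0 (2-cell), 10.2 and 15.3 (8-cell), 43.5 and 6.38 (morula), and 25.8 and 27.8 CPM (blastocyst) in pools. POLD4 transcriptomes were at 0, 0 and 0 (GV), 0.114, 0.304 and 0 (MII), 0, 0 and 0 (2-cell), 7.11, 1.25 and 2.87 (8-cell), 2.05, 1.25 and 0.9696 (morula), and 0, 0.207 and 0 CPM (blastocyst). Up to the 2-cell stage POLD4 thus had 15 counts in GV pools, 4 in MII transcriptomes and 0 elsewhere. In blastocysts the pools held 1247 counts against 1 in the transcriptomes, a ratio of 355 (95% exact interval from counts alone, 63.6 to 14023). The morula call (log2 4.12 ± 1.18) was lost without pool A, which held 43.5 CPM against 6.38 in pool B.

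Polymerase epsilon copies the leading strand. Its subunit POLE2 held 45.7 and 46.2 (GV), 38.8 and 47.2 (MII), 11.5 and 18.9 (2-cell), 22.2 and 15.5 (8-cell), 1.301 and 23.95 (morula), and 1.74 and 15.4 CPM (blastocyst) in pools. POLE2 transcriptomes held 209, 290.1 and 241 (GV), 668, 659.8 and 1028 (MII), 284, 290.5 and 243 (2-cell), 55.8, 65.96 and 46.1 (8-cell), 62.5, 51.9 and 53.98 (morula), and 22.1, 11.8 and 21.01 CPM (blastocyst). The groups were farthest apart in MII oocytes (-4.19 ± 0.80, adjusted p = 0.000101) and 2-cell embryos (-4.16 ± 0.80, adjusted p = 0.000132), and met in blastocysts, where pool B lay among the transcriptomes. The GV call was lost without either pool and the morula call without pool A. POLE3 was lower only in 2-cell embryos, and POLE4 was higher only in blastocysts.

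The clamp PCNA, which tethers polymerases to DNA, was lower in polysomes than in the transcriptome at every stage, and so it was in free RNA. Against monosomes of the same gradients, PCNA was called higher in polysomes in MII oocytes and 8-cell embryos. PCNA pools measured 205 and 221 (GV), 168 and 201 (MII), 125 and 92.2 (2-cell), 157 and 195 (8-cell), 163 and 145 (morula), and 123 and 103 CPM (blastocyst). Its transcriptomes measured 1129.9, 1674 and 1316 (GV), 3361, 2962 and 4559.7 (MII), 801, 886 and 834 (2-cell), 954, 1164 and 846 (8-cell), 702, 820.2 and 784 (morula), and 221, 227 and 274 CPM (blastocyst). Pool values stayed between 92.2 and 221 CPM over the 6 stages while transcriptomes went from 221 to 4560 CPM. The polysome difference was -4.30 ± 0.29 in MII oocytes (adjusted p = 1.36e-11) and -1.09 ± 0.24 in blastocysts (adjusted p = 0.000958). In the clamp loader, RFC1 was lower at 6 stages, RFC4 and RFC5 at 4 and RFC3 at 3, and RFC2 was higher at 4. RFC3 pools gave 211 and 181 (GV), 16.4 and 58.8 (MII), 37.9 and 57.8 (2-cell), 29.98 and 70.9 (8-cell), 70.1 and 95.8 (morula), and 63.4 and 66.8 CPM (blastocyst) and its transcriptomes 475, 521 and 520.3 (GV), 60.2, 64.9 and 75.2 (MII), 133, 139 and 145 (2-cell), 84.3, 93.4 and 94.2 (8-cell), 157, 174 and 202 (morula), and 75.3, 52.4 and 78.4 CPM (blastocyst). RFC3 pools lay below all transcriptomes of their stage up to the morula and among them in blastocysts, with calls in GV oocytes (-1.37 ± 0.39, lost without pool B), 2-cell embryos (-1.54 ± 0.39) and morulae (-1.10 ± 0.38, lost without pool A or transcriptome C).

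RPA, the single-strand binding protein, has subunits RPA1, RPA2 and RPA3. RPA3 measured 33.1 and 43.9 (GV), 72.8 and 66.8 (MII), 79.3 and 49.6 (2-cell), 43.9 and 49.96 (8-cell), 94.7 and 44.3 (morula), and 133 and 206 CPM (blastocyst) in pools. RPA3 transcriptomes measured 131, 157 and 197 (GV), 391, 259 and 230.3 (MII), 58.9, 78.4 and 107 (2-cell), 119, 152 and 133 (8-cell), 122, 143 and 156 (morula), and 109.7, 106 and 139 CPM (blastocyst). Pools lay below transcriptomes in GV and MII oocytes, 8-cell embryos and morulae, and the groups overlapped in 2-cell embryos and blastocysts. The morula call was lost without pool B. RPA2 was lower at 5 stages, and RPA1 was lower in 2-cell and 8-cell embryos and higher in blastocysts (0.99 ± 0.34, adjusted p = 0.0246). FEN1, the flap nuclease that trims lagging-strand fragments, gave 14.02 and 6.92 (GV), 12.8 and 8.12 (MII), 14.1 and 18.2 (2-cell), 28.5 and 47.8 (8-cell), 172 and 197 (morula), and 76.4 and 79.5 CPM (blastocyst) in pools and 5.92, 2.97 and 5.68 (GV), 6.41, 5.07 and 4.64 (MII), 4.72, 4.24 and 5.64 (2-cell), 14.7, 16.04 and 13.4 (8-cell), 40.97, 43.3 and 46.2 (morula), and 62.3, 46.9 and 57.2 CPM (blastocyst) in transcriptomes. It was higher in polysomes at the stages up to the morula, from 0.96 ± 0.37 in MII oocytes to 2.08 ± 0.36 in morulae, and every pool lay above every transcriptome. The GV call of FEN1 was lost without pool A or transcriptome B, and the MII call without pool A or transcriptome B or C. LIG1, which seals the nicks, was higher in 8-cell embryos (1.80 ± 0.29) and morulae (0.88 ± 0.29) and lower in 2-cell embryos (-1.01 ± 0.31) and blastocysts (-0.77 ± 0.30).

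Fork protection genes keep stalled forks intact. TIMELESS was higher in polysomes at 5 stages, whereas its binding partner TIPIN, together with CLSPN and WDHD1, was lower at all 6. TIPIN pools held 54.8 and 41.6 (GV), 45.97 and 50.3 (MII), 33.4 and 28.1 (2-cell), 15.9 and 27.001 (8-cell), 81.2 and 18.95 (morula), and 15.6 and 12.9 CPM (blastocyst). Its transcriptomes held 177, 233 and 229 (GV), 609.9, 541 and 787 (MII), 291, 402 and 293 (2-cell), 110.4, 156 and 134 (8-cell), 161, 112 and 172 (morula), and 54.1, 42.1 and 40.02 CPM (blastocyst). All pools lay below all transcriptomes, with a difference of -3.75 ± 0.45 in MII oocytes, and the morula call was lost without pool B. CLSPN, the mediator of the checkpoint kinase, held 41.1 and 30.8 (GV), 44.96 and 86.001 (MII), 24.6 and 45.2 (2-cell), 31.4 and 21.96 (8-cell), 22.02 and 11.99 (morula), and 4.83 and 14.4 CPM (blastocyst) in pools. CLSPN transcriptomes held 152, 214 and 155 (GV), 377, 351 and 415 (MII), 253, 254 and 242 (2-cell), 57.9, 154 and 111 (8-cell), 116, 93.7 and 81.9 (morula), and 109, 48.7 and 34.4 CPM (blastocyst). Its pools again lay below every transcriptome, with differences between -2.84 ± 0.53 in 2-cell embryos and -2.01 ± 0.51 in 8-cell embryos. For WDHD1 in morulae the pools stood at 8.58 and 8.45 CPM and the transcriptomes at 89.6, 101 and 110.4 CPM.

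Enzymes of deoxynucleotide supply completed the list. TK1, thymidine kinase of the salvage route, was higher in polysomes at all 6 stages, and RRM1, RRM2 and TYMS were called only lower. TK1 measured 124 and 216 (GV), 181 and 244 (MII), 136 and 110.1 (2-cell), 228 and 398 (8-cell), 612 and 378 (morula), and 205 and 209 CPM (blastocyst) in pools and 27.7, 17.02 and 22.6 (GV), 19.9, 15.5 and 14.3 (MII), 14.7, 14.9 and 21.5 (2-cell), 26.05, 20.9 and 17.4 (8-cell), 59.9, 56.7 and 46.7 (morula), and 59.4, 38.4 and 56.6 CPM (blastocyst) in transcriptomes, without overlap at any stage, and its difference was 3.87 ± 0.34 in 8-cell embryos (adjusted p = 2.34e-09). RRM2, the regulated subunit of ribonucleotide reductase, measured 27.8 and 25.7 (GV), 29.5 and 20.3 (MII), 25.9 and 41.4 (2-cell), 194 and 268 (8-cell), 564 and 595 (morula), and 220.5 and 201 CPM (blastocyst) in pools. RRM2 transcriptomes measured 39.6, 31.1 and 41.3 (GV), 76.5, 79.8 and 71.7 (MII), 84.9, 86.9 and 72.95 (2-cell), 219.9, 233 and 312 (8-cell), 735, 715 and 685 (morula), and 368, 409 and 445 CPM (blastocyst). Pools were below transcriptomes in MII oocytes (-1.61 ± 0.26), 2-cell embryos (-1.28 ± 0.25) and blastocysts (-0.95 ± 0.25), and overlapped them in 8-cell embryos. TYMS, thymidylate synthase of the de novo route, held 245 and 219 (GV), 279.9 and 238 (MII), 180.0 and 142 (2-cell), 111 and 95.6 (8-cell), 137 and 128 (morula), and 127 and 162 CPM (blastocyst) in pools and 268, 201 and 264 (GV), 380.5, 407 and 447 (MII), 308, 344 and 324 (2-cell), 86.3, 88.2 and 95.2 (8-cell), 135, 111 and 118 (morula), and 211, 218 and 253 CPM (blastocyst) in transcriptomes. TYMS was lower in MII oocytes (-0.67 ± 0.22), 2-cell embryos (-1.02 ± 0.22) and blastocysts (-0.65 ± 0.22), of which the MII call was lost without pool B and the blastocyst call without pool A or transcriptome C.

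**Figure D4:**
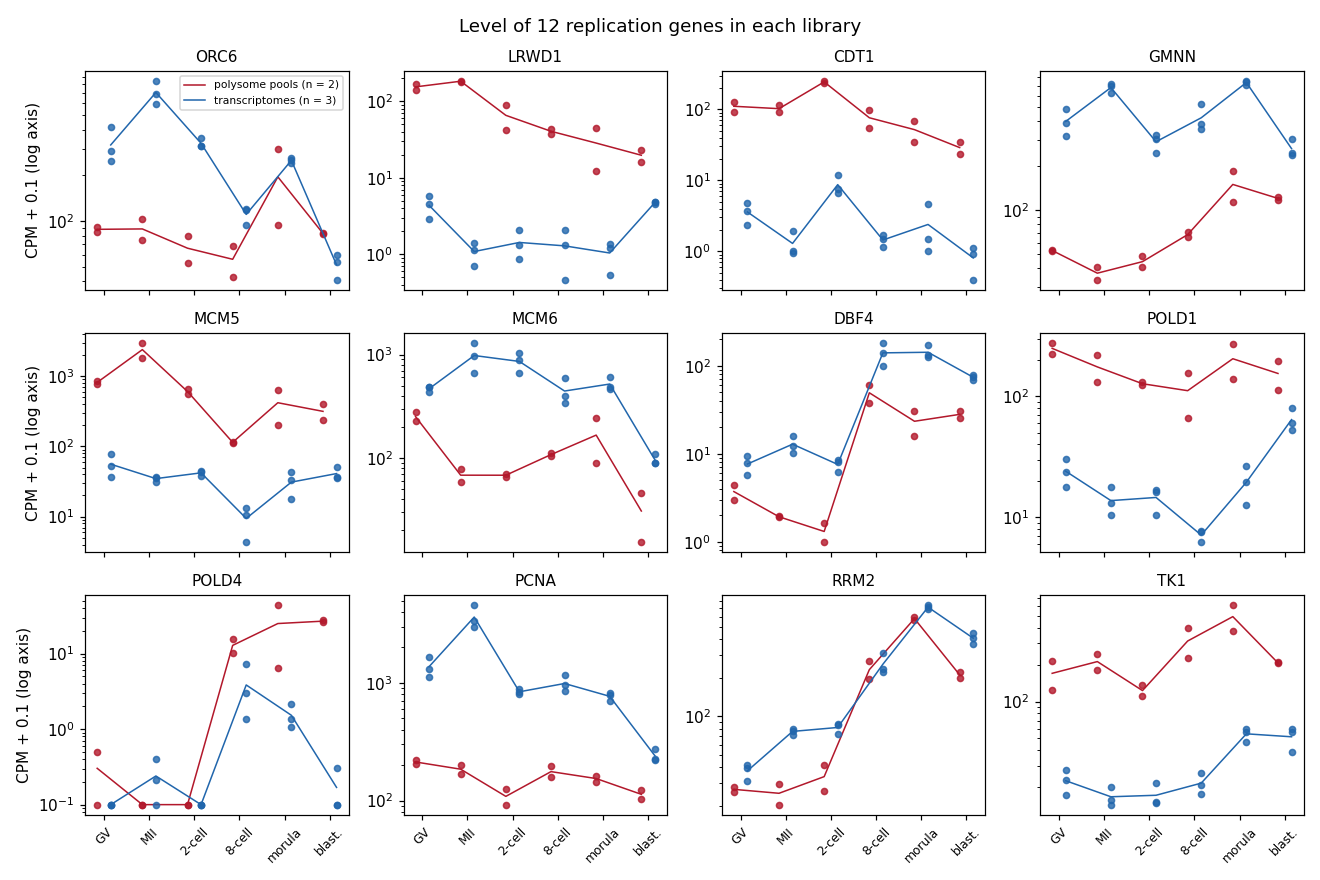
Levels of 12 replication genes in each library, as CPM + 0.1 on a log axis (y) by stage (x). Red points are polysome pools (n = 2) and blue points transcriptomes (n = 3), with lines through the means. CDT1, LRWD1, MCM5, POLD1 and TK1 are higher in pools and GMNN, MCM6, DBF4 and PCNA in transcriptomes at every stage, and DBF4 and POLD4 climb from the 2-cell to the 8-cell stage in both.

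The transcriptome changed most for these genes between the 2-cell and the 8-cell stage. There, 24 of 58 members fell (41.4%) and 6 rose (10.3%), against 23.5% and 26.6% of all tested genes (50.1% in either direction). The falling members included 5 of 7 origin recognition genes, 2 of 3 licensing factors (CDT1 and CDC6) and 4 of 9 MCM genes. LIG1 fell by most, from 458, 396 and 585 CPM to 27.7, 31.4 and 53.4 CPM (log2 -3.68 ± 0.30, adjusted p = 6.77e-10). ORC5 went from 1019, 1017 and 814 to 65.1, 65.2 and 94.9 CPM (log2 -3.66 ± 0.45), and GINS4 from 84.4, 75.3 and 99.4 to 11.3, 3.76 and 8.698 CPM (log2 -3.44 ± 0.42). Genes were named here from called members whose groups did not overlap, so their separation follows from that choice.

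POLD4, DBF4 and RRM2 rose by most. POLD4 had 0 counts in 2-cell transcriptomes and 130 in 8-cell ones, at least 16.2-fold higher against a floor of 3 counts per library. DBF4 rose from 8.44, 7.91 and 6.09 CPM to 99.1, 181 and 139.9 CPM (log2 4.22 ± 0.38, adjusted p = 3.29e-09), and RRM2 from 84.9, 86.9 and 72.95 to 219.9, 233 and 312 CPM (log2 1.64 ± 0.22). FEN1, POLE4 and POLD2 were the other members that rose.

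Maturation from GV to MII changed the share of 21 members in the transcriptome. The libraries hold poly(A) cDNA, and whether a higher share meant more mRNA per oocyte was not tested. Here 11 members rose (19.0%) and 10 fell (17.2%), against 6.61% and 10.5% of all tested genes (17.1% in either direction). The summed markers of cumulus and granulosa cells were higher over the same step, from 80.4 to 94.3 CPM in GV transcriptomes to 398 to 579 CPM in MII transcriptomes, and their part in these changes was not tested. WDHD1 rose from 144, 162 and 136 to 368, 457 and 701 CPM (log2 1.79 ± 0.37), RRM1 from 171, 147 and 161 to 346, 489 and 638 CPM (log2 1.62 ± 0.39), and TIPIN from 177, 233 and 229 to 609.9, 541 and 787 CPM (log2 1.60 ± 0.35). POLD2 fell from 25.5, 18.05 and 24.3 to 1.95, 0.912 and 0.476 CPM (log2 -4.34 ± 0.46, adjusted p = 2.04e-07). RFC3 fell from 475, 521 and 520.3 to 60.2, 64.9 and 75.2 CPM, and POLA2 from 22.3, 9.95 and 14.5 to 2.75, 3.24 and 2.97 CPM. RFC2, RFC4 and RFC5 fell together with RFC3, so 4 of the 5 clamp loader genes fell while PCNA and RFC1 rose. The balance of the maturation counts depended on scaling, with 17 rising and 8 falling under RLE size factors and 4 rising and 13 falling on library totals without TMM.

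From MII oocytes to 2-cell embryos, 6 members rose (10.3%; 6.0% of all tested genes) and 5 fell (8.62%; 5.96%) in the transcriptome. CDT1 rose from 0.916, 1.82 and 0.833 to 6.47, 7.43 and 11.9 CPM, POLD2 from 1.95, 0.912 and 0.476 to 6.09, 6.63 and 6.92 CPM, and POLA2 from 2.75, 3.24 and 2.97 to 15.6, 13.03 and 15.9 CPM. PCNA fell from 3361, 2962 and 4559.7 to 801, 886 and 834 CPM (log2 -2.11 ± 0.22), RPA3 from 391, 259 and 230.3 to 58.9, 78.4 and 107 CPM, and RRM1 from 346, 489 and 638 to 139, 198 and 104 CPM. On library totals without TMM the split was 9 rising and 3 falling, and by DESeq2 6 rising and 9 falling. The cumulus and granulosa sum was 168 to 183 CPM in 2-cell transcriptomes.

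From the 8-cell stage to the morula, 10 members rose in the transcriptome (17.2%; 6.6% of all tested genes) and none fell (7.75% of all tested genes, 17 members at an unadjusted p below 0.05 in either direction). GINS2 rose from 25.02, 19.9 and 25.1 to 129, 91.6 and 89.6 CPM (log2 2.15 ± 0.26), MCM2 from 9.25, 8.16 and 7.92 to 45.4, 32.9 and 22.7 CPM (log2 1.99 ± 0.37), and GINS1 from 145, 186 and 197 to 651, 777 and 648 CPM (log2 1.97 ± 0.26). RRM2, TK1, FEN1, MCM5, POLD1, ORC6 and RFC4 made up the rest, of which ORC6 was lost without 8-cell transcriptome A and POLD1 without morula transcriptome A. The cumulus and granulosa sum was 199 to 1181 CPM in 8-cell and 24.0 to 28.9 CPM in morula transcriptomes, and its part was not tested.

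From morula to blastocyst, 16 members fell (27.6%; 11.4% of all tested genes) and 3 rose (5.17%; 10.2%). RPA1 fell from 66.9, 63.9 and 59.8 to 12.9, 14.1 and 6.002 CPM (log2 -2.53 ± 0.33), MCM6 from 612, 460.1 and 482 to 89.1, 89.1 and 109 CPM (log2 -2.43 ± 0.37), and ORC6 from 261, 242 and 251 to 53.2, 40.6 and 59.8 CPM (log2 -2.30 ± 0.32). LRWD1 rose from 1.12, 1.25 and 0.431 to 4.704, 4.77 and 4.402 CPM, LIG1 from 62.2, 43.002 and 27.3 to 153, 162 and 172 CPM, and POLD1 from 26.2, 19.4 and 12.5 to 79.7, 53.1 and 59.8 CPM. These 6 genes were chosen from called members whose groups did not overlap, so their separation follows from the choice.

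A gene was called maternal in the transcriptome when it was above each of 8-cell embryos, morulae and blastocysts by more than 4-fold in both kinds of oocyte, and embryonic in the reverse case. ORC3, ORC5, GINS4, PRIM2 and POLE2 were maternal, 5 of 58 (8.62%; 6.79% of all tested genes). DBF4 was the embryonic member, 1 of 58 (1.72%; 6.69% of all tested genes). The other 52 genes missed a threshold in at least 1 of the 6 comparisons, which says nothing of their level.

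Before genome activation, calls in polysome pools were few among members and among all tested genes, and with n = 2 pools that does not show that levels stayed alike. From GV to MII, GINS2 rose from 114 and 136 to 721 and 432 CPM (log2 2.20 ± 0.31, adjusted p = 0.000274), 1 of 58 (1.72%; 3.03% of all tested genes). RFC3 fell from 211 and 181 to 16.4 and 58.8 CPM (log2 -2.38 ± 0.43), MCM6 from 225 and 276 to 77.5 and 58.4 CPM (log2 -1.88 ± 0.44), and RFC5 from 126 and 95.1 to 30.6 and 46.4 CPM (log2 -1.52 ± 0.31), 3 of 58 (5.17%; 2.33%; 5.37% in either direction), and 16 members had an unadjusted p below 0.05. The MCM6 fall was lost without GV or MII pool B and the RFC5 fall without GV or MII pool A. From MII to 2-cell, none rose (3.37% of all tested genes) and MCM2, MCM5 and RRM1 fell (5.17%; 5.14%; 8.51% in either direction), with 12 members at an unadjusted p below 0.05 by edgeR and 5 falling by DESeq2. MCM5 went from 2956 and 1809.8 to 646 and 563 CPM and MCM2 from 33.2 and 34.1 to 11.98 and 8.43 CPM. The falls of MCM2 and MCM5 were each lost in 3 of 4 fits that left out a pool. Without the 2-cell pool of gradient A no member was called, and without that of gradient B 1 was.

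From the 2-cell to the 8-cell stage, 14 members rose in polysomes (24.1%; 21.0% of all tested genes) and 15 fell (25.9%; 25.2%; 46.3% in either direction), shares near the background. POLD4 went from 0 to 814 counts, at least 145-fold higher against the floor of 3 counts per library. DBF4 rose from 0.8895 and 1.54 to 60.7 and 37.7 CPM (log2 5.34 ± 0.49, adjusted p = 1.70e-08) and RRM2 from 25.9 and 41.4 to 194 and 268 CPM (log2 2.78 ± 0.28, adjusted p = 6.43e-08). ORC2 fell from 8.81 and 8.55 to 0 and 2.11 CPM, PRIM2 from 99.2 and 37.3 to 0.041 and 18.8 CPM, and MCM3 from 239.9 and 398 to 13.6 and 75.6 CPM (log2 -2.84 ± 0.58). Pools of PRIM2 and MCM3 at the 8-cell stage differed strongly between gradients. Both lay below the 2-cell pools, which the choice of named genes required. The PRIM2 fall was lost without 2-cell or 8-cell pool A. Without the 2-cell pool of gradient A, 10 rose and 8 fell. POLA1, called as rising, turned to -1.53 without 8-cell pool A.

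Between the 8-cell stage and the morula, 17 members rose in polysomes (29.3%; 18.5% of all tested genes) and 8 fell (13.8%; 17.7%; 36.2% in either direction). PRIM1 went from 0 and 0.732 to 1.35 and 5.12 CPM (log2 3.07 ± 0.98), ORC2 from 0 and 2.11 to 3.42 and 13.5 CPM (log2 2.96 ± 0.84), and RFC2 from 39.5 and 27.7 to 369.5 and 90.2 CPM (log2 2.77 ± 0.50). MCM9 fell from 12.3 and 20.1 to 0.0482 and 3.22 CPM, WDHD1 from 128 and 27.8 to 8.58 and 8.45 CPM, and GINS4 from 62.995 and 47.6 to 5.01 and 20.9 CPM. The PRIM1 rise was lost without 8-cell pool A or morula pool B, the ORC2 rise without morula pool B and the MCM9 fall without morula pool A. On library totals without TMM the split was 10 rising and 11 falling, and without 8-cell pool A it was 12 and 4. TIPIN, called as rising here, turned to -0.18 without morula pool A, and POLA1, called as falling, turned to 0.94 without 8-cell pool A.

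From morula to blastocyst, ORC4 and RPA3 rose in polysomes (3.45%; 5.79% of all tested genes) and 7 members fell (12.1%; 8.13%; 13.9% in either direction). ORC4 rose from 3.81 and 1.24 to 3.92 and 12.3 CPM (log2 1.71 ± 0.53) and RPA3 from 94.7 and 44.3 to 133 and 206 CPM (log2 1.29 ± 0.37). MCM6 fell from 88.4 and 244 to 45.9 and 15.2 CPM (log2 -2.44 ± 0.45), ORC3 from 155 and 53.7 to 12.01 and 28.6 CPM (log2 -2.36 ± 0.41), and TIPIN from 81.2 and 18.95 to 15.6 and 12.9 CPM (log2 -1.81 ± 0.43). The rises of ORC4 and RPA3 were lost without morula or blastocyst pool B, and the fall of TIPIN without morula pool A or blastocyst pool B. Without morula pool B, 4 rose and 11 fell, and without blastocyst pool B none rose and 4 fell.

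**Figure D5:**
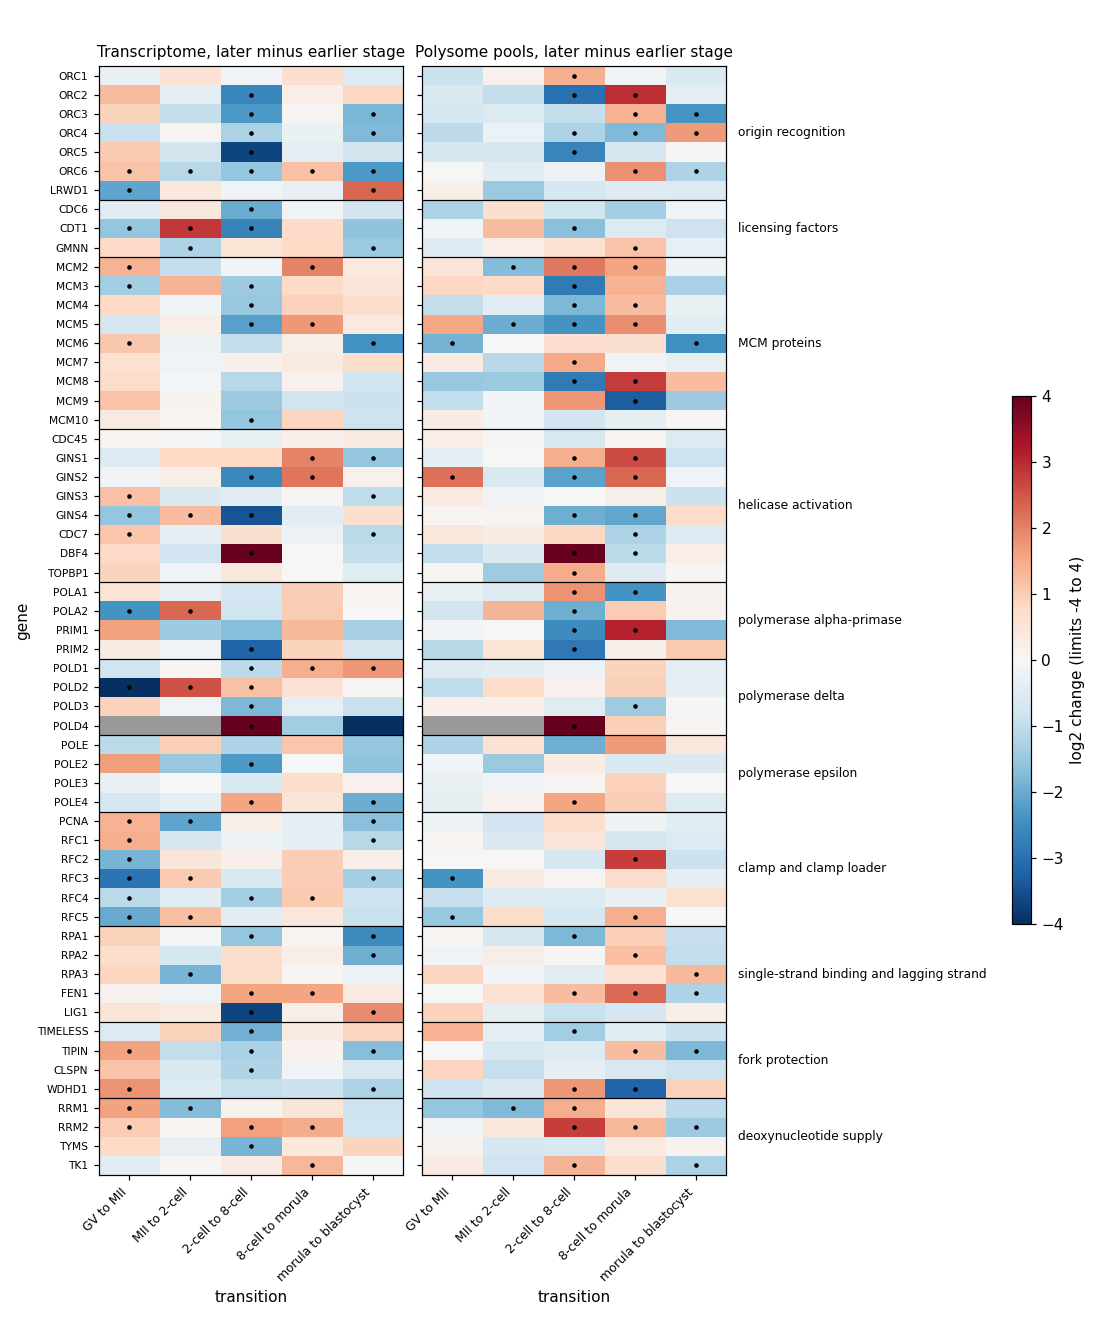
Changes of the 58 replication genes (rows, grouped by role) over the 5 transitions (columns) in transcriptomes (left) and polysome pools (right), as log2 of the later over the earlier stage, capped at -4 and 4. Dots mark edgeR adjusted p below 0.05 with a fold above 2, and grey marks POLD4 where both groups had at most 15 counts. In the transcriptome 24 genes fall (41.4%; 23.5% of all tested genes) and 6 rise (10.3%; 26.6%) from 2-cell to 8-cell. In the polysomes 17 rise (29.3%; 18.5%) and 8 fall (13.8%; 17.7%) from 8-cell to morula. On library totals without TMM these became 10 and 11.

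Whether polysomes and transcriptome changed unequally was tested as an interaction, the log2 change in pools minus that in transcriptomes. During maturation, 10 of 58 members had a lower polysome than transcriptome change (17.2%; 3.49% of all tested genes) and 4 a higher one (6.9%; 7.14%). One of the 10, POLD4, rested on 15 counts in GV pools and 4 in MII transcriptomes. RRM1 rose in the transcriptome while its pools went from 158 and 168 to 22.2 and 88.4 CPM (interaction -3.18 ± 0.61, adjusted p = 0.00113). MCM6 rose in the transcriptome and fell in the pools (interaction -2.95 ± 0.56, adjusted p = 0.000999), although the rise itself was lost in 5 of 6 fits that left out a transcriptome. POLD2 fell in the transcriptome while its pools went from 103 and 92.1 to 62.2 and 34.4 CPM (interaction 3.32 ± 0.64, adjusted p = 0.00112). Without GV pool A, GV pool B, MII pool A, GV transcriptome A or MII transcriptome B, the 14 calls became 7, 8, 9, 8 and 9. Single calls were lost in 9 of the 10 fits for ORC3, 8 for MCM3 and RRM2, 7 for DBF4 and 4 for MCM5, and MCM4 was lost without GV pool A.

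PCNA and GMNN went through the stages alike in this test. The interaction was negative from GV to MII (-1.61 ± 0.33 for PCNA and -1.28 ± 0.35 for GMNN), positive from MII to 2-cell (1.34 ± 0.33 and 1.49 ± 0.35) and positive from morula to blastocyst (1.23 ± 0.33 and 1.18 ± 0.35), and each of these passed the test. The maturation call of GMNN was lost when GV pool A, GV pool B, MII pool B or GV transcriptome A was left out, and the last call of PCNA without blastocyst pool A and of GMNN in 7 of 10 such fits. They were the 2 members called from MII to 2-cell (3.45%; 0.725% of all tested genes higher), where PCNA was lost in 8 and GMNN in 6 of 10 such fits, and that count was 0 to 2 when single libraries were left out. WDHD1 was called in 4 of the 5 transitions, at -2.62 ± 0.58, 2.68 ± 0.58, -2.33 ± 0.58 and 2.17 ± 0.58, and its 8-cell pools held 128 and 27.8 CPM. Without 8-cell pool A the calls into and out of the 8-cell stage were lost for WDHD1, at 1.21 and -0.86.

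From 2-cell to 8-cell, the polysome change exceeded the transcriptome change in 5 members (8.62%; 3.44% of all tested genes) and fell short in none (8.71%; 19 members at an unadjusted p below 0.05, 1 below by DESeq2). They were LIG1 (2.80 ± 0.43, adjusted p = 0.000154), WDHD1, MCM2 (2.21 ± 0.58), TYMS (1.22 ± 0.30) and RRM2 (1.14 ± 0.34). LIG1 pools went from 253 and 225 to 126 and 134 CPM while its transcriptome fell, and TYMS pools from 180.0 and 142 to 111 and 95.6 CPM. MCM2 and TYMS were lost without 2-cell pool B and RRM2 in 6 of 10 fits that left out a library. Without 8-cell pool B the calls became 18, 10 higher and 8 lower, and without 2-cell pool B 3. From 8-cell to morula POLA1, RFC4 and WDHD1 were lower (5.17%; 5.41%) and none higher (7.04%; 15 members at an unadjusted p below 0.05, and 4 of each direction by DESeq2), POLA1 was at -0.04 without 8-cell pool A, RFC4 was lost in 5 of 10 fits, and the count became 13 without 8-cell pool B, 7 without morula pool A and 15 without morula pool B. From morula to blastocyst 7 were higher (12.1%; 6.03%) and 4 lower (6.9%; 6.23%), led by ORC4 at 3.48 ± 0.67 and LRWD1 at -2.82 ± 0.83 (lost without morula pool B, blastocyst pool B or morula transcriptome C), and the 11 calls became 17 without morula pool B, 7 and 6 without blastocyst pool A or B, and 7 without morula transcriptome B or C. There FEN1 was lost in 9 of 10 fits, RPA3 in 6, RPA1 in 5, POLD1 without morula or blastocyst pool B, and RFC4 without blastocyst pool A.

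Along the gradient, the trend of each gene over F3 to F10 was taken as Spearman's rho across 16 libraries per stage, with a permutation p adjusted over all genes. Fractions of a gradient are slices of 1 lysate, so the 16 values come from 2 gradients and these p-values are too small. In GV oocytes 20 of 57 members tested rose towards polysomes (35.1%; 18% of all genes) and 6 fell (10.5%; 18.6%). Within single gradients the balance differed, with 9 rising and 0 falling without gradient A and 2 rising and 3 falling without gradient B. RPA3 (0.92), CLSPN (0.91), RFC1 (0.89) and TOPBP1 (0.88) had the highest rho. F8 to F10 enter both the trend and the polysome difference. PCNA (0.78) and GMNN (0.75), lower in GV polysomes than in the transcriptome, rose along the gradient. CDT1 (-0.63), MCM5 (-0.88), POLD1 (-0.62) and POLD2 (-0.82), higher in GV polysomes, fell, and TK1, also higher, rose (0.85). The share of all genes with each pair of calls was not counted, so the following member counts have no background beside them. Of 17 members called in both ways in GV oocytes, 12 were lower and rising, 4 higher and falling, and 1 higher and rising. In MII oocytes 13 were called in both ways, 6 lower and rising, 3 lower and falling, 3 higher and falling, and 1 higher and rising. Of 15 such members in 2-cell embryos, 7 were lower and falling, 5 higher and rising, 2 higher and falling, and 1 lower and rising. Of 8 in 8-cell embryos, 6 were higher and falling and 2 lower and rising. The 2 in morulae were higher and rising, and of 4 in blastocysts 3 were higher and rising and 1 lower and rising.

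TOPBP1, which was not called in GV polysomes against the transcriptome, illustrates a rising profile. Its GV fractions went from 5.26 CPM in F3 to 55.3 CPM in F10 (means of 2 gradients) against 56.3 CPM in the transcriptomes. MCM5 went from 1465 CPM in F3 to 696 CPM in F10, against 52.8 CPM.

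In MII oocytes 7 of 57 members rose (12.3%; 7.29% of all genes) and 9 fell (15.8%; 12.3%), and in 2-cell embryos 6 of 56 rose (10.7%; 10.7%) and 10 fell (17.9%; 9.93%). PCNA in MII oocytes (0.94) and POLD1 in 2-cell embryos (0.89) were the strongest rises, and PRIM2 in MII oocytes (-0.96) and RPA2 in 2-cell embryos (-0.85) the strongest falls. In 8-cell embryos 4 of 55 rose (7.27%; 6.45%) and 7 fell (12.7%; 8.63%), with GINS2 (-0.91) and CDT1 (-0.82) falling. In morulae 2 of 57 rose (3.51%; 0.956%), TK1 (0.89) and GINS2 (0.78), and in blastocysts 4 of 58 rose (6.9%; 6.11%), while none fell at either stage (0.637% and 1.74%; 12 and 15 members at an unadjusted p below 0.05). TK1 rose at 4 stages, PCNA, RPA3 and CLSPN at 3, and GINS4 fell at 3. Within a single gradient of 8 fractions the counts without gradient A were 9 for GV, 0 for MII and 5 for the 2-cell stage, those without gradient B were 5, 4 and 0, and both were 0 at the later stages.

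Around the fork, 74 further genes of 8 lists were counted in the same fits (checkpoint, accessory initiation factors, clamp unloaders and cohesion loaders, topoisomerases and nucleases, chromatin assembly, ubiquitin control of licensing, E2F and RB factors, and other nucleotide enzymes). In polysomes against transcriptome, 16 to 20 of them were higher (21.6% to 27.0%; 20.0% to 30.8% of all tested genes) and 24 to 32 lower (32.4% to 43.2%; 17.7% to 31.0%) at each stage. Topoisomerases and nucleases were mostly lower, with 5 or 6 of 8 lower and 2 of 8 higher at every stage. Clamp unloaders and cohesion loaders had 3 of 5 lower at every stage, and checkpoint genes 4 to 6 of 10 lower and at most 2 higher. Of 12 other nucleotide enzymes, 3 to 6 were higher and 2 to 4 lower, of 13 E2F and RB factors 2 or 3 higher and 2 to 5 lower, and of 10 chromatin assembly genes 1 to 4 higher and 3 to 5 lower. Accessory initiation factors had 1 or 2 of 8 higher and 1 to 3 lower, and ubiquitin control genes 1 to 3 of 8 higher and 2 or 3 lower. RAD9A, a subunit of the checkpoint clamp, was higher in MII polysomes at a mean of 170.2 against 1.72 CPM (log2 6.63 ± 0.59, adjusted p = 1.39e-09), and E2F1, a transcription factor of S phase genes, in GV polysomes at 63.2 against 1.35 CPM (log2 5.54 ± 0.61). ATR, the checkpoint kinase, was lower in MII polysomes at 0.966 against 84.1 CPM (log2 -6.43 ± 1.03). From 2-cell to 8-cell, 15 of the 74 rose (20.3%; 26.6% of all tested genes) and 21 fell (28.4%; 23.5%) in the transcriptome, and 16 rose (21.6%; 21.0%) and 15 fell (20.3%; 25.2%) in polysomes, shares near the background. WEE1, the inhibitory kinase of CDK, rose there in the transcriptome from 0.459 to 22.8 CPM (log2 5.61 ± 0.68). Chromatin assembly genes gave 7 of 10 falls at that step.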

How the data were processed

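Libraries were made from 10 gradient fractions of 2 gradients and from 3 transcriptomes at each of 6 stages (138 libraries), with a low-input poly(A) cDNA kit and tagmentation. The values are expected counts per gene, which the authors estimated with Salmon and deposited without normalization. The labels name the genome build UMD3.1 and the article another bovine build, so no coordinates are printed. Of the values, 11.7% were not whole and were rounded. Groups came from the sample labels, and no library pair of the 78 compared was identical.

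F8 to F10, F3 to F5 and F1 with F2 were summed per gradient. Pools and transcriptomes (30 libraries) entered 1 edgeR fit (4.0.16, R 4.3.3; filterByExpr, TMM, quasi-likelihood F test, Benjamini-Hochberg over 14612 genes), so all groups shared the estimate of spread. Adjusted p-values printed beside polysome differences, stage changes and interactions come from this fit, and values after ± are standard errors. By the study's methods, oocytes or embryos for transcriptomes came from the batches that also supplied the gradients, and which library belongs to which batch is not given in the sources used here, so p-values measure the spread between these libraries. Trends used scipy 1.17.1 with 100000 permutations on genes averaging at least 1 CPM. A group at 0 was given a floor of 3 counts per library, and intervals cover counting error only.

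The script was tested on simulated data. Alternatives were a likelihood ratio test, DESeq2 1.42.0, RLE size factors, library totals without TMM, no filter, the letter as a block, pools of F9 and F10, and leaving out each library. Members and lists were chosen with earlier results of these data known. Values are given per library for a fixed set of members. They are also given for up to 3 members in each direction at each stage or transition. These had the largest fold changes among called members whose groups did not overlap. Genes of other lists were named when among the 2 largest called differences of a comparison. No sequence is printed, since sequence tables were not used here.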

Additional observations from a re-analysis of the deposited data

Results flagged for a closer look

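The interaction test of polysome change against transcriptome change called 34 member changes with enough counts, each a difference between the groups' changes over the same transition. They are log2 differences, positive where the polysome change was the higher. Of the 34, 24 were lost in at least 1 of the 10 fits that left out a library and 10 held in every such fit.

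From GV to MII the values were 3.32 for POLD2, 2.31 for GINS2, 2.23 for MCM5 and 2.23 for MCM3. They were negative for RRM1 (-3.18), MCM6 (-2.95), WDHD1 (-2.62), DBF4 (-1.74), MCM4 (-1.73), PCNA (-1.61), ORC3 (-1.57), GMNN (-1.28) and RRM2 (-1.13). From MII to the 2-cell stage GMNN was at 1.49 and PCNA at 1.34. From the 2-cell to the 8-cell stage LIG1 was at 2.80, WDHD1 at 2.68, MCM2 at 2.21, TYMS at 1.22 and RRM2 at 1.14. From the 8-cell stage to the morula POLA1 was at -3.38, WDHD1 at -2.33 and RFC4 at -1.32. From morula to blastocyst the values were 3.48 for ORC4, 2.17 for WDHD1, 1.62 for RPA1, 1.53 for RPA3, 1.44 for RFC4, 1.23 for PCNA and 1.18 for GMNN. LRWD1 (-2.82), POLD1 (-2.13), LIG1 (-1.65) and FEN1 (-1.59) were negative there.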

How the results depend on the processing

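Gradients A and B are the replicates of the polysome data, so n = 2 limits every polysome value, and POLD4 had at most 15 counts in any group before the 8-cell stage. Of 1767 values of 261 named calls under the other settings, 1658 kept direction and call, 109 kept direction alone, and none reversed, and 167 of the 261 calls held in every fit that left out a library. The cause was not tested for the values below.

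The polysome against monosome fit, a separate comparison with another reference, called 0, 1, 0, 8, 1 and 0 members from GV to blastocyst. Of all genes it called 0.0% to 4.06% as higher and 0.0% to 4.68% as lower. Free RNA against transcriptome called 14 members in blastocysts, 4 higher (6.9%; 9.56% of all genes tested there) and 10 lower (17.2%; 15.8%). Polysome changes called were 7 without TMM and 2 with F9 and F10 from GV to MII, and 5 by DESeq2 and 1 without TMM from MII to 2-cell. Interactions called from GV to MII were 7 with F9 and F10, and from MII to 2-cell 4 by likelihood ratio, 5 by DESeq2, 1 without filter and 0 with F9 and F10. From 2-cell to 8-cell they were 9 by likelihood ratio and 10 by DESeq2, from 8-cell to morula 5 and 8, and from morula to blastocyst 5 with F9 and F10. Embryonic members were 2 without TMM. Trends over F1 to F10 gave 8 members for MII, 8 for 2-cell, 5 for 8-cell and 12 for blastocyst, and CPM without TMM gave 7 in blastocysts and no filter 1 in morulae.

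Deviations of pools and transcriptomes with the same letter had correlations of -0.07 to 0.04. With 2 pools per stage, that cannot show whether a letter marks a shared batch. With the letter as a replicate block the interactions called were 9 from GV to MII and 1 from MII to 2-cell. Rising and falling members in transcriptomes were 19 and 9 by DESeq2 from GV to MII. In blastocyst polysomes 9 were higher and 22 lower without TMM. From GV to MII 1 rose and 6 fell in polysomes without TMM, and from MII to 2-cell 1 rose and 0 fell. Interactions from MII to 2-cell were 3 higher and 2 lower by DESeq2, and from 8-cell to morula 1 and 3 with RLE. The median polysome difference of all genes moved to -0.50 with RLE in 8-cell embryos and to -0.42 in blastocysts without TMM.

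Leaving out single libraries gave 23 to 31 members in polysomes against transcriptome for GV, 36 to 42 for MII, 38 to 44 for 2-cell, 35 to 40 for 8-cell, 33 to 39 for morula and 21 to 32 for blastocyst. In transcriptome transitions the counts were 15 to 19, 8 to 9, 28 to 32, 9 to 12 and 16 to 19, and in polysome transitions 3 to 6, 0 to 3, 18 to 25, 16 to 34 and 4 to 15. Interactions gave 7 to 11, 0 to 2, 3 to 18, 2 to 15 and 6 to 17. Maternal members were 4 to 5 and embryonic members 1. Trends gave 5 to 9, 0 to 4 and 0 to 5 members up to the 2-cell stage and 0 after. POLA1 ranged from -1.53 to 2.74 (2-cell to 8-cell polysomes) and from -3.32 to 0.94 (8-cell to morula), without 8-cell pool A or B. TIPIN ranged from -0.18 to 1.94 (8-cell to morula polysomes), without morula pool A or B. A description of E2F sites in promoters was not run.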
